A study of Homo sapiens with 16 samples.

Results

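Histones that are made outside DNA replication were followed in 7 genes: the linker histone gene H1-10, the H2A variant genes H2AX, H2AZ1, H2AZ2 and MACROH2A1, and the H3.3 genes H3-3A and H3-3B. They were taken by symbol from the 34618 genes of the deposited counts table, with no threshold on any value. The family was chosen by its measured counts in these same libraries, in all 4 groups, since it was proposed with earlier results in view. Its NEL responses and line differences are therefore given as descriptions and support nothing further. RNA was sequenced from KG1A and U937, 2 established human lines of acute myeloid leukaemia, each treated with the agent labelled NEL at 10 µM or with its vehicle, DMSO, and each line and treatment had 4 libraries. The series title concerns ribonucleotide reductase, deoxynucleotide pools and the differentiation block of the leukaemia. No treatment time and no full name of the agent are in the labels, every group was grown in medium with dialyzed serum, and separate cultures are not stated for replicate libraries. Errors and adjusted p-values therefore measure the spread between libraries, which may be technical.

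DNA in the nucleus is wound around octamers of the core histones H2A, H2B, H3 and H4, and a linker histone of the H1 family binds where the DNA enters and leaves. Bulk core histones are made in S phase from clustered genes whose messages end in a stem-loop, whereas the variants studied here come from separate genes with polyadenylated messages, the kind of RNA that these libraries captured, and can be put into chromatin at any time. H2AX is mixed in this respect: its gene also gives a stem-loop message without a poly(A) tail in S phase, which such libraries would largely miss. H2A.X is phosphorylated at DNA breaks, H2A.Z sits beside promoters, macroH2A carries a large folded domain and is best known from silent chromatin, and H3.3 replaces H3 in transcribed genes and at telomeres.

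The promoters of 5 members are shown because these are the genes called lower after NEL in both lines, and RefSeq gives each of them 1 start. Each sequence runs 5′ to 3′ over the 250 bases before the start on the minus strand of GRCh38.p14, and capitals mark CCAAT (or ATTGG, the same box on the other strand) and TATAAA.
H1-10: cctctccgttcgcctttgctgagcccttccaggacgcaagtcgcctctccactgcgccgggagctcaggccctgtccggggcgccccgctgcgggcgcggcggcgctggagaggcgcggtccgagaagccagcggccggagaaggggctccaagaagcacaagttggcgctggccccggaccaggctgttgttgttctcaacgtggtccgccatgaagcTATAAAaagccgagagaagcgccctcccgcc
H2AX: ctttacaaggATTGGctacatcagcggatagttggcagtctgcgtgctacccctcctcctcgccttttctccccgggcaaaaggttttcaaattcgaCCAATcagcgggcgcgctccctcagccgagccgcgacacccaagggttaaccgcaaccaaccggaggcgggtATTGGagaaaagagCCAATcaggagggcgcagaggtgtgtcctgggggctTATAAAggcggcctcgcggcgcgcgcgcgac
H2AZ1: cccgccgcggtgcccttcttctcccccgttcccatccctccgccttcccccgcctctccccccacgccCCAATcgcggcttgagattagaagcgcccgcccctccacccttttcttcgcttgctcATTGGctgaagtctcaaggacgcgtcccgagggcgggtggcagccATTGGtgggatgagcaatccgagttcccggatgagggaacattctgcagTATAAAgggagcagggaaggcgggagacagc
H2AZ2: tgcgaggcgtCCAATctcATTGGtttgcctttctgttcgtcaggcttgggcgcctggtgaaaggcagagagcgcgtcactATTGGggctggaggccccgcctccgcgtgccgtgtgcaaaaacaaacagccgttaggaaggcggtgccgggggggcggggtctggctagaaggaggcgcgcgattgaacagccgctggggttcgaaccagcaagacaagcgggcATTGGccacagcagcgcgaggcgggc
H3-3B: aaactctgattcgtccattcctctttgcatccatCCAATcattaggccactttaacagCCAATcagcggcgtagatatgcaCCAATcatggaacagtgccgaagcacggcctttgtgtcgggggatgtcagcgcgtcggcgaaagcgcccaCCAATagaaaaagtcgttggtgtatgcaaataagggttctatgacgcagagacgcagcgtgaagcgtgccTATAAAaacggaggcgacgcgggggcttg
The sequences lie at chr3:129316287-129316536 for H1-10, chr11:119095466-119095715 for H2AX, chr4:99950276-99950525 for H2AZ1, chr7:44848088-44848337 for H2AZ2 and chr17:75779780-75780029 for H3-3B. The CCAAT box, the motif that the factor NF-Y binds, was found 4 times before H2AX, H2AZ2 and H3-3B, 3 times before H2AZ1 and 0 times before H1-10, counting both strands. Among 35116 promoters of the same length, 32.0% held the box at least once and 2.93% at least 3 times. TATAAA, the letters of a TATA box, stood once before H1-10, H2AX, H2AZ1 and H3-3B, and in 10.7% of all promoters. Other letters were searched as well. The E2F forms TTTCCCGC and TTTGGCGC were found before no member, and the CHR letters TTTGAA stood once before H2AX. Of these 5 genes, the GC box GGGCGG stood 2 times before H2AZ1 and once before H2AZ2, and in 42.6% of all promoters. These matches are letters in a window, and binding was not measured. The 5 genes were picked by their NEL calls, and a link between these letters and the response was not tested. The other 2 members have several starts, 2 for MACROH2A1 and 4 for H3-3A. The CCAAT box was found 0 and 2 times before those of MACROH2A1 and 1, 1, 0 and 1 times before those of H3-3A. TATAAA was found before none of them.

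Library totals lay between 10641567 and 11777684 counts. All 7 members passed the filter on low counts in every comparison, and H3-3A had the fewest reads, 173 to 462 per library. Within a group, libraries with odd numbers resembled each other, and so did those with even numbers, more than across these 2 sets. The mean chi-square per gene was 1.26 to 2.08 in the 8 pairs of libraries within a set, against 4.24 to 9.39 in the 16 pairs across sets, where counting noise alone gives about 1. The labels name no cause, so the members' changes are also given within odd and within even libraries. Marker genes differed between the lines, but not all in each list. CD34 stood at 889 CPM (counts scaled to library size) in KG1A with DMSO and at 0.333 in U937 with DMSO, and SPI1 at 2.56 and 139. In the same groups, KIT (2.12 and 0.558), FLT3 (0.0464 and 0.311) and the myeloid gene MPO (0.0692 and 0.401) were low in both lines. The myeloid gene CSF3R was close between them (77.8 and 88.9). Of 5 T-cell markers, KG1A libraries held CD3D (118 CPM with DMSO, 108 with NEL) and CD3E (27.5 and 36.9), while CD3G, CD2 and CD5 were below 1 CPM in both lines. Of the B-cell genes, PAX5 stood at 19.4 CPM in U937 with DMSO and 22.4 with NEL, and at 5.99 and 9.76 in KG1A. CD79A stood at 6.59 CPM in U937 with NEL and at 1.54 or less in the other groups. The haemoglobin genes HBB, HBA1 and HBA2 were at 0 everywhere, the erythroid factor gene KLF1 stood at 4.45 CPM in U937 with DMSO and 1.59 with NEL, and the epithelial list summed to at most 0.180 CPM. In such bulk RNA, fewer cells with a message and less of it per cell cannot be told apart.

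NEL-treated KG1A cells had less RNA of 6 of the 7 histone genes than DMSO controls, and U937 cells of 5, with H1-10 far in front: its level was 2.42-fold lower in KG1A and 2.34-fold lower in U937. The 6 lower calls in KG1A were H1-10, H2AX, H2AZ1, H2AZ2, MACROH2A1 and H3-3B, the 5 in U937 were H1-10, H2AX, H2AZ1, H2AZ2 and H3-3B, and no member was called higher in either line (edgeR, adjusted p under 0.05). Of all genes tested, 23.6% were called higher and 23.6% lower in KG1A, and 34.6% higher and 34.7% lower in U937. A gap between all NEL and all DMSO libraries was seen for 5 members in KG1A and 6 in U937, and 42.2% and 62.4% of all genes showed such a gap. The members' median log2 fold change was -0.23 in KG1A and -0.36 in U937, and the median over all genes was -0.00 in both. Since the genes were picked with these contrasts known, nothing is read from those counts.

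**Figure D1:**
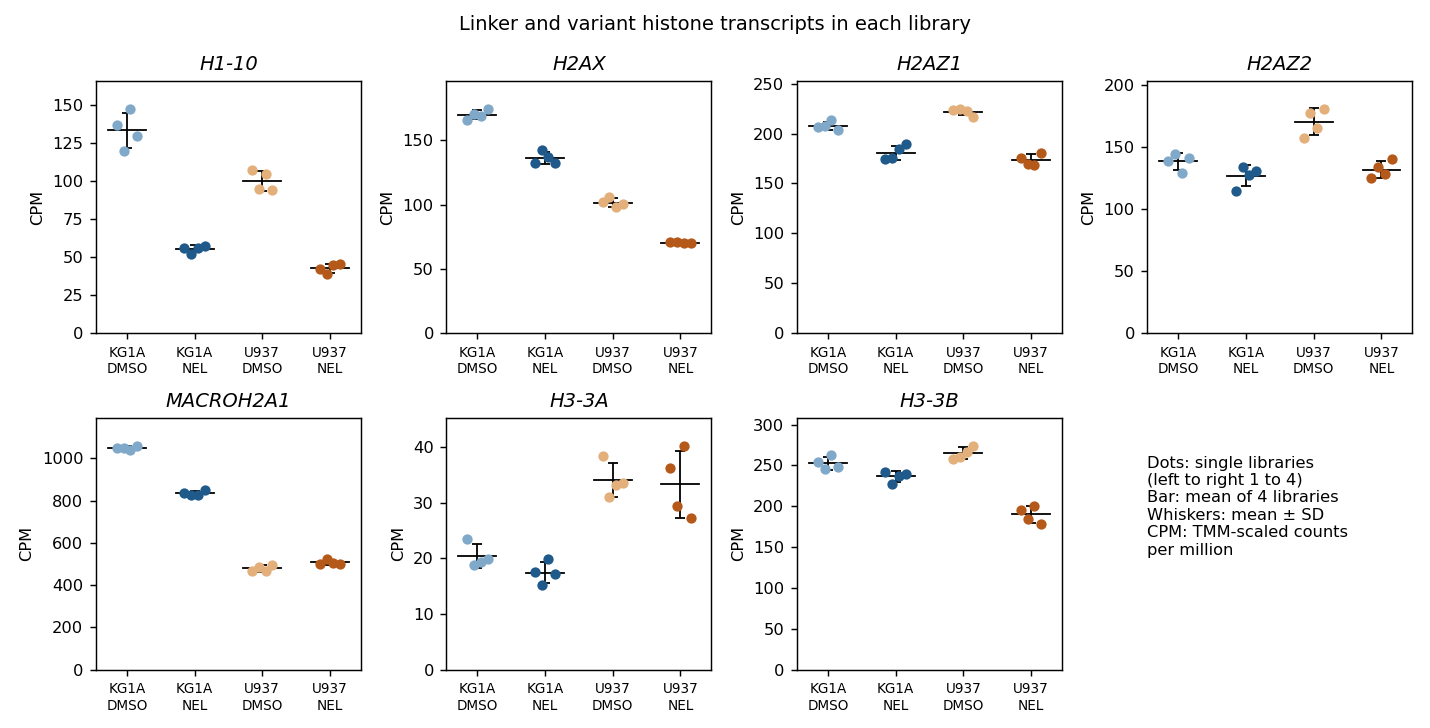
CPM of each member in the 16 libraries, with 1 point per library, a bar at the mean of each group of 4 and whiskers of 1 SD. H1-10 in NEL libraries (38.9 to 57.6 CPM) lies below every DMSO library (94.5 to 148 CPM), and MACROH2A1 separates the lines, at 826 CPM or more in KG1A and 523 or less in U937.

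H1-10 encodes H1.X, a replication-independent linker histone, in a gene without introns (ENSG00000184897, chr3:129033615-129035120 on the minus strand of GRCh37, the build of the deposited tables). In KG1A its 4 DMSO libraries held 137, 120.2, 148 and 129.7 CPM and its 4 NEL libraries 55.9, 52.3, 56.0 and 57.6 CPM. In U937 the DMSO libraries held 107, 95.0, 104 and 94.5 CPM and the NEL libraries 41.9, 38.9, 44.8 and 45.5 CPM. No library of either treatment overlapped the other, and the highest NEL value anywhere stayed below the lowest DMSO value. The log2 fold change was -1.28 ± 0.06 (SE, n = 4 against 4) in KG1A and -1.23 ± 0.06 in U937, and it was -1.35 and -1.19 within the odd and the even libraries of KG1A and -1.29 and -1.16 within those of U937. Only 39 of 14250 tested genes had a lower log2 fold change in KG1A, against 257 of 14390 in U937. The gene overlaps H1-10-AS1 on the other strand by 886 bases, and that antisense gene went from 56.6 to 26.4 CPM in KG1A (log2 fold change -1.11) and from 37.6 to 17.9 CPM in U937 (-1.07). Libraries were made with a stranded kit, but how strand was treated in counting is unknown here, so reads of the pair cannot be told apart, and the share of H1-10 reads in the antisense values was not tested.

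H2AX encodes H2A.X, whose tail is phosphorylated by ATM and related kinases around DNA breaks (ENSG00000188486, chr11:118964564-118966177, minus strand). KG1A held 166, 170.4, 169 and 174 CPM with DMSO and 132, 143, 137 and 133 CPM with NEL. U937 held 102, 106, 97.8 and 100.3 CPM with DMSO and 70.6, 70.6, 69.8 and 69.7 CPM with NEL. Every NEL library was below every DMSO library of its line, and all KG1A libraries were above all U937 libraries. The log2 fold change was -0.33 ± 0.04 (1.25-fold lower) in KG1A and -0.53 ± 0.04 (1.44-fold lower) in U937. Within odd and even libraries it was -0.32 and -0.33 in KG1A, and -0.51 and -0.55 in U937.

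H2A.Z is encoded by 2 genes whose proteins are nearly the same. H2AZ1 (ENSG00000164032, chr4:100869243-100871545, minus strand) held 206, 208, 213 and 204 CPM in KG1A with DMSO and 175, 176, 184 and 189 CPM with NEL. In U937 it held 224, 225, 223 and 217 CPM with DMSO and 175, 169, 169 and 181 CPM with NEL. The treatments did not overlap in either line, and the log2 fold change was -0.21 ± 0.04 in KG1A (1.15-fold lower) and -0.35 ± 0.04 in U937 (1.28-fold lower). It was -0.23 and -0.18 within the odd and even libraries of KG1A, and -0.38 and -0.32 within those of U937. H2AZ1-DT, a transcript that starts on the other strand and overlaps the gene by 383 bases, had log2 fold changes of -0.24 and -0.40, and how far reads are shared was not tested.

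H2AZ2, the second H2A.Z gene (ENSG00000105968, chr7:44866390-44887682, minus strand), held 138, 144, 129 and 141 CPM in KG1A with DMSO and 115, 134, 128 and 130.4 CPM with NEL. Here the groups overlapped, the log2 fold change was -0.13 ± 0.05 (1.10-fold lower, -0.15 and -0.12 in odd and even libraries), and the call at an adjusted p of 0.0434 (edgeR) was lost when any of DMSO libraries 1, 2 and 4 or NEL libraries 1 and 3 was left out (adjusted p 0.0698 to 0.143). The value was -0.09 without NEL library 1 and -0.07 with limma-trend on log2 RPKM (adjusted p = 0.376). RPKM are scaled by library totals alone, without the TMM factors of the main fits. The call was also lost with the DESeq2 test (0.0703) and one model of all libraries (0.0686). U937 held 157, 178, 165 and 180.5 CPM with DMSO and 125, 134, 128 and 140.1 CPM with NEL. Those groups did not overlap, and the log2 fold change was -0.36 ± 0.05 (1.29-fold lower), or -0.35 in odd and -0.38 in even libraries.

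MACROH2A1 encodes macroH2A1, the variant with a globular macrodomain beside its histone fold (ENSG00000113648, chr5:134669590-134735604, minus strand), and it behaved differently in the lines. KG1A held 1051, 1051, 1041 and 1059.9 CPM with DMSO and 835, 826, 829 and 849.6 CPM with NEL. U937 held 467, 487, 466 and 497 CPM with DMSO and 500.2, 523, 507 and 502 CPM with NEL. NEL libraries were all below DMSO libraries in KG1A and all above them in U937, in U937 by a narrow margin. The log2 fold change was -0.34 ± 0.03 in KG1A (1.26-fold lower, -0.33 and -0.34 in odd and even libraries). In U937 it was 0.09 ± 0.04 (0.11 and 0.07), which was not called (adjusted p = 0.0575, edgeR) but was called higher with the replicate number as a block (adjusted p = 0.00158, edgeR). Without U937 DMSO library 4 it was called as well (adjusted p = 0.0428, edgeR), and 12 of the 23 alternatives gave a call. PITX1-AS1, which overlaps 22155 bases of the gene on the other strand, moved the same ways, with log2 fold changes of -0.31 and 0.26, and its share in these reads was not tested.

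The H3.3 protein also comes from a pair of genes, and they gave different values here. H3-3A (ENSG00000163041, chr1:226249552-226259702, plus strand) held 23.6, 18.7, 19.3 and 19.8 CPM in KG1A with DMSO and 17.5, 15.3, 19.9 and 17.1 CPM with NEL. In U937 it held 38.5, 31.1, 33.2 and 33.5 CPM with DMSO and 36.3, 29.4, 40.2 and 27.3 CPM with NEL. Treatments overlapped in both lines. The KG1A log2 fold change of -0.23 ± 0.09 (-0.20 and -0.26 in odd and even libraries) was not called (adjusted p = 0.0587, edgeR). It was called lower by edgeR with the replicate block (adjusted p = 0.00453) and with no filter on low counts (0.0442). The same held with libraries 1 and 2, and 3 and 4, summed (0.0167). Each of those sums joins an odd with an even library, so the sums do not show the spread between the sets. H3-3A was also called lower without KG1A DMSO library 2 (0.046) and without KG1A NEL library 3 (0.0239). In U937 the log2 fold change was -0.03 ± 0.11 (adjusted p = 0.813, edgeR), with opposite signs in odd (0.09) and even (-0.18) libraries.

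H3-3B, the H3.3 gene with more counts and RPKM here (ENSG00000132475, chr17:73772515-73781974, minus strand), held 254, 245, 263 and 248 CPM in KG1A with DMSO and 242, 228, 237 and 240.1 CPM with NEL. That is a log2 fold change of -0.10 ± 0.04 (1.07-fold lower, -0.11 and -0.08 in odd and even libraries) with a narrow gap between the groups. The call at an adjusted p of 0.034 (edgeR) was lost without any of DMSO libraries 1 and 3 or NEL libraries 2 and 3 (adjusted p 0.0606 to 0.108). It was also lost with the DESeq2 test (0.0555), one model of all libraries (0.0617) and the even libraries alone (0.0618). With limma-trend on log2 RPKM, which carry no TMM factors, the call was lost too (0.447) and the value was -0.03. U937 held 259, 261, 267 and 274 CPM with DMSO and 196, 185, 201 and 179 CPM with NEL. There the groups were well apart, and the log2 fold change was -0.48 ± 0.04 (1.39-fold lower), or -0.41 in odd and -0.55 in even libraries. UNK, which overlaps H3-3B by 1294 bases on the other strand, had log2 fold changes of 0.09 and 0.07.

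**Figure D2:**
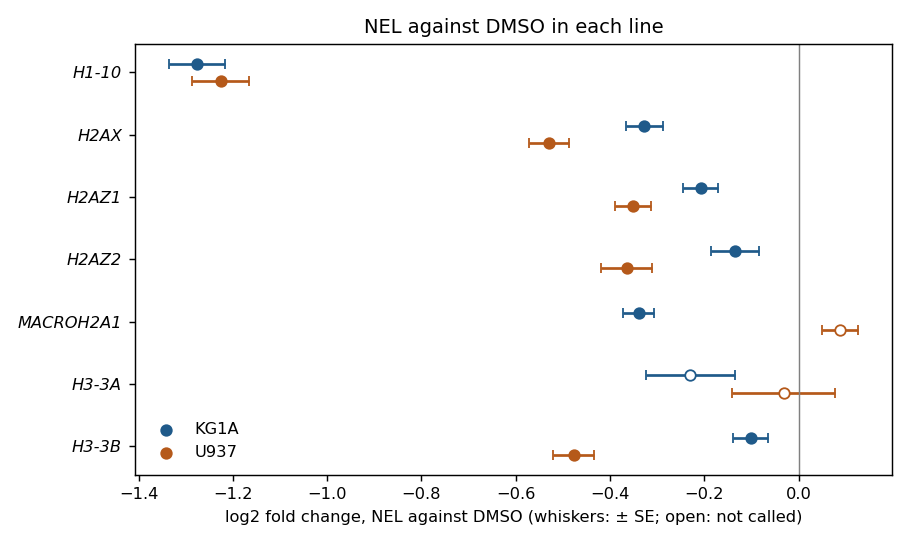
Log2 fold change of NEL against DMSO for each member in KG1A and U937, with whiskers of 1 SE, filled points for called genes and open points for the others. H1-10 stands at -1.28 and -1.23, and MACROH2A1 is the only member with points on opposite sides of 0.

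Whether the lines responded differently was asked with the interaction term of a fit over all 16 libraries, given as the U937 effect minus the KG1A effect. Of all genes tested, 21.1% were called higher and 26.3% lower in this comparison, and the members gave 1 call higher and 4 lower, from which nothing is read. MACROH2A1 differed by 0.42 ± 0.05 (adjusted p = 1.56e-07, edgeR; 0.44 and 0.40 in odd and even libraries) and H3-3B by -0.39 ± 0.06 (adjusted p = 7.09e-06; -0.30 and -0.47). Both calls were kept under each of the 30 alternatives run. H2AX differed by -0.21 ± 0.05 (adjusted p = 0.00221, edgeR), H2AZ1 by -0.15 ± 0.05 (0.0177) and H2AZ2 by -0.24 ± 0.08 (0.013). These 3 depended on the scaling: with DESeq2 size factors the differences were -0.13 (adjusted p = 0.0577), -0.07 (0.317) and -0.15 (0.109). For H1-10 the difference was 0.04 ± 0.09, with a 95% interval of -0.14 to 0.22, so its NEL response was not distinguishable between the lines within that width. For H3-3A it was 0.19 ± 0.16, with an interval of -0.12 to 0.50.

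U937 with DMSO held less H1-10, H2AX and MACROH2A1 RNA and more H2AZ2 and H3-3A RNA than KG1A with DMSO. MACROH2A1 was 2.32-fold lower (log2 -1.22 ± 0.04), H2AX 1.77-fold lower (-0.83 ± 0.04) and H1-10 1.41-fold lower (-0.50 ± 0.06). H3-3A was 1.58-fold higher (0.66 ± 0.08) and H2AZ2 1.16-fold higher (0.21 ± 0.05). H2AZ1 (0.01 ± 0.04, adjusted p = 0.788) and H3-3B (-0.01 ± 0.04, adjusted p = 0.73) were not called by edgeR. One model of all 16 libraries put H2AZ1 at 0.09 (adjusted p = 0.0199, called higher), and the CPM printed above, which are scaled over the same 16 libraries, do not overlap. The main fit scaled the DMSO libraries alone. One model also moved H3-3B, from -0.01 to 0.07 (adjusted p = 0.11, edgeR). The cause of these moves was not tested. In odd and even libraries the values were -0.50 and -0.49 for H1-10, -0.82 and -0.83 for H2AX, -1.24 and -1.19 for MACROH2A1, 0.67 and 0.66 for H3-3A, and 0.19 and 0.24 for H2AZ2. H2AZ1 was at 0.01 in both sets, and H3-3B was at -0.05 and 0.03. The members' 5 calls and 6 gaps between groups stand beside 86.4% of genes called either way and 81.6% without overlap.

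With NEL, U937 was lower than KG1A for H2AX (1.95-fold, log2 -0.96 ± 0.04), MACROH2A1 (1.65-fold, -0.72 ± 0.04), H1-10 (1.30-fold, -0.38 ± 0.06) and H3-3B (1.25-fold, -0.32 ± 0.04). H3-3A was 1.90-fold higher (0.93 ± 0.12, or 1.03 in odd and 0.80 in even libraries). H2AZ2 was at 0.05 ± 0.05 (adjusted p = 0.361, edgeR) and H2AZ1 at -0.06 ± 0.04 (adjusted p = 0.165, edgeR; called lower with the replicate block, adjusted p = 0.0269). The other members stayed close between odd and even libraries, at -0.95 and -0.98 for H2AX, -0.73 and -0.72 for MACROH2A1, -0.38 and -0.39 for H1-10, 0.06 and 0.05 for H2AZ2 and -0.07 in both for H2AZ1, while H3-3B was at -0.28 and -0.37. The members gave 5 calls and 5 gaps, beside 85.1% of genes called either way and 80.6% without overlap. These line comparisons use the same libraries as the NEL comparisons and add no independent evidence to them.

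**Figure D3:**
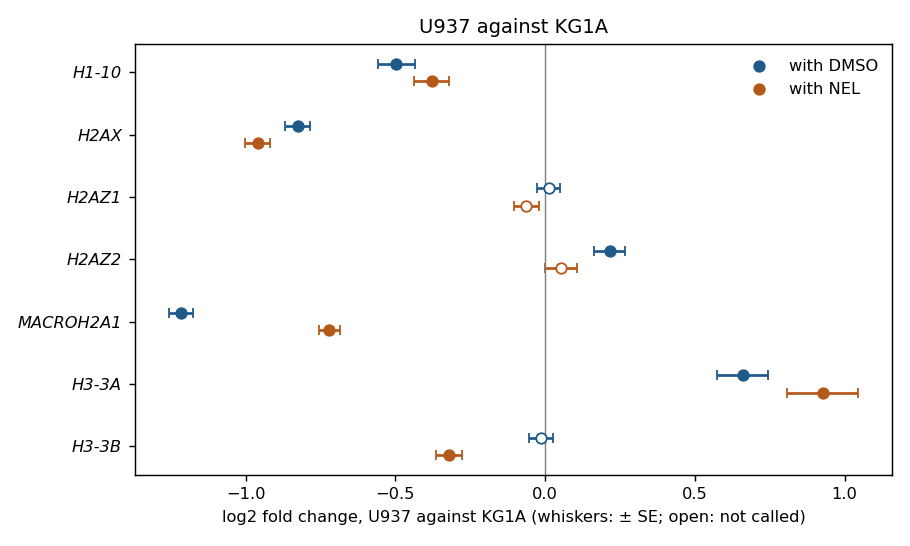
Log2 fold change of U937 against KG1A for each member, with DMSO and with NEL, with whiskers of 1 SE, and open points where the gene was not called. MACROH2A1 moves from -1.22 with DMSO to -0.72 with NEL, and H3-3B from -0.01 to -0.32.

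The order of the 4 groups differed by gene. For H1-10 it was KG1A with DMSO, U937 with DMSO, KG1A with NEL and U937 with NEL from high to low, with both DMSO groups above both NEL groups, and no neighbours overlapped. For H2AX it was KG1A with DMSO, KG1A with NEL, U937 with DMSO and U937 with NEL, with the line first and again no overlap. MACROH2A1 kept the KG1A groups on top but had U937 with NEL above U937 with DMSO. H2AZ1 and H3-3B had both DMSO groups above both NEL groups, with overlap between the NEL groups of H2AZ1 and between the DMSO groups of H3-3B. H2AZ2 stood apart only in U937 with DMSO, and the other 3 groups overlapped as neighbours. H3-3A had both U937 groups above both KG1A groups, with overlap inside each line.

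Levels between genes were compared on the deposited RPKM, which divides by the length of all annotated exons (1506 bases for H1-10, 17730 for MACROH2A1), so genes with many rarely used exons read low. In KG1A with DMSO, H2AX led with 103 ± 2.92 RPKM (SD, n = 4), followed by H2AZ1 (88.6 ± 1.84) and H1-10 (87.1 ± 7.49), which overlapped. MACROH2A1 (58.2 ± 0.743), H3-3B (40.4 ± 1.26), H2AZ2 (28.6 ± 1.41) and H3-3A (6.35 ± 0.629) came next without overlap. In KG1A with NEL, H1-10 dropped to 37.7 ± 1.57 RPKM and shared its place with H3-3B (39.5 ± 0.997), below H2AX (86.3 ± 3.35), H2AZ1 (80.3 ± 3.64) and MACROH2A1 (48.2 ± 0.867).

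U937 cells with DMSO had H2AZ1 on top at 92.9 ± 2.02 RPKM, then H1-10 (64.2 ± 4.25) and H2AX (60.7 ± 2.53), which overlapped. Below them stood H3-3B (41.7 ± 0.845), H2AZ2 (34.5 ± 2.2), MACROH2A1 (26.1 ± 0.856) and H3-3A (10.4 ± 0.980). With NEL, H2AZ1 (77.6 ± 2.76) and H2AX (44.7 ± 0.217) stood apart, and H3-3B (31.9 ± 1.55), MACROH2A1 (29.5 ± 0.660), H1-10 (29.2 ± 2.14) and H2AZ2 (28.5 ± 1.63) overlapped as neighbours. H3-3A was last in each group, at 5.67 ± 0.604 RPKM in KG1A with NEL and 10.9 ± 1.93 in U937 with NEL.

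**Figure D4:**
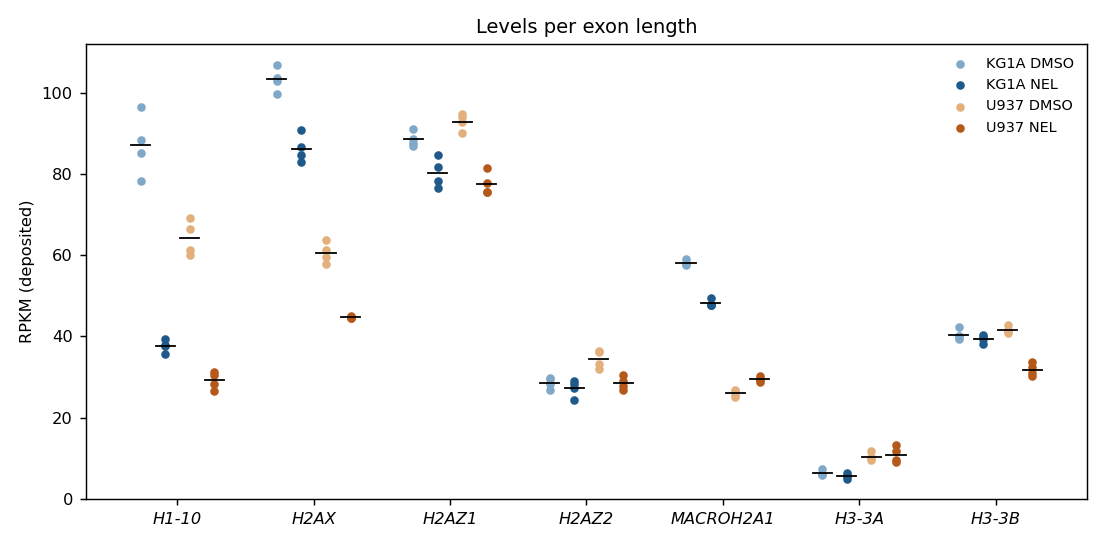
Deposited RPKM of each member in the 16 libraries, with 1 point per library and a bar at each group mean. H1-10 changes place most, from 87.1 to 37.7 RPKM in KG1A and from 64.2 to 29.2 in U937, and H3-3A stays lowest.

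In each pair, 1 gene held most of the summed RPKM. How reads that match several loci were counted is not stated, and transcripts of H3-3A share sequence with 12 pseudogenes. The effect of this on the H3-3A share was not tested. H2AZ1 held 75.6 ± 1.18% of the pair's summed RPKM in KG1A with DMSO, 74.7 ± 1.20% with NEL, 72.9 ± 1.46% in U937 with DMSO and 73.1 ± 0.918% with NEL, so its share differed by less than the spread between libraries with treatment. H3-3A held 13.6 ± 1.22% of its pair in KG1A with DMSO and 12.6 ± 1.07% with NEL. In U937 it held 20.03 ± 1.66% with DMSO (18.9 to 22.5%) and 25.3 ± 2.44% with NEL (22.9 to 28.1%), without overlap, as H3-3B was lower and H3-3A was not called.

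Reads of the paired genes can be separated by sequence. In GENCODE 29 the coding sequences of H2AZ1 and H2AZ2, 387 bases with the stop codon, differ at 76 bases (80.4% identity) but in only 3 residues, and their longest identical run is 23 bases. Those of H3-3A and H3-3B, 411 bases, differ at 88 bases (78.6% identity) and in 0 residues, with a longest run of 14 bases. Exact matches on either strand were also sought in transcripts of all other genes, including genes that overlap a member on the other strand. Of the 50-base windows of H3-3A transcripts, 11.71% occurred in 12 other genes, all pseudogenes. For H3-3B it was 6.86%, in 1 other gene that was not a pseudogene. The share was 7.85% for H2AZ1 (2 other genes) and 3.02% for H2AZ2 (52 other genes). It was 17.22% for H1-10 (1 other gene) and 24.48% for MACROH2A1 (2 other genes). By these windows, counts of every other member are less certain than those of H2AX (0.32%), those of MACROH2A1 and H1-10 most of all. The genes that matched H1-10, MACROH2A1 and H3-3B were not pseudogenes, and whether they are the overlapping genes named above was not tested. With 100-base windows the shares were 10.26% for H3-3A, 10.72% for H1-10, 15.96% for MACROH2A1, 1.09% for H2AZ2 and 0.48% for H3-3B. They were 0% for H2AX and H2AZ1. How the authors' counting treated reads with several matches is not stated.

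The proteins that move these variants were followed in lists of genes by known function, which were drawn up with earlier results of these data known. Counts in these lists and in the cell cycle lists are therefore descriptions, and nothing further is read from them. They stand beside the shares of all genes, 23.6% called higher and 23.6% lower in KG1A and 34.6% and 34.7% in U937, with a median of -0.00 in each line. Of 13 genes that exchange or remodel H2A.Z, 8 fell and 0 rose in KG1A (23.6% of all genes fell) and 9 fell and 0 rose in U937 (34.7% of all genes fell), with a median log2 fold change of -0.21 and -0.28. ANP32E, which strips H2A.Z from nucleosomes, fell by 0.38 ± 0.04 (adjusted p = 1.1e-06, edgeR) in KG1A. INO80, the ATPase of a remodeller that acts on H2A.Z, fell by 0.36 ± 0.05 (1.75e-05) in KG1A and by 0.95 ± 0.05 (6.13e-10) in U937. RUVBL2, an ATPase shared by the INO80 and SRCAP complexes, fell by 0.57 ± 0.05 (3.11e-07) in U937.

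For H3.3 the 7 deposition genes split. In KG1A 2 rose (UBN1 by 0.24 ± 0.04, adjusted p = 0.000276, and CABIN1 by 0.10 ± 0.04, 0.0346, both partners of the chaperone HIRA) and 1 fell (the chaperone ASF1A, -0.19 ± 0.06, 0.0125, edgeR). In U937 3 rose and 3 fell. HIRA itself fell by 0.76 ± 0.08 (adjusted p = 1.4e-06, edgeR) in U937, from 16.2 to 9.54 CPM, and ATRX, which works with DAXX at repeats and telomeres, rose by 0.39 ± 0.05 (1.82e-05). DAXX, named here as the partner of ATRX and after its values were seen, fell by 0.55 ± 0.08 (adjusted p = 1.94e-05, edgeR) in U937, from 119 to 81.3 CPM. The list's median was 0.02 in KG1A and -0.03 in U937.

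Of 8 genes that load the replication-coupled H3 and H4, 7 rose and 0 fell in KG1A, where 23.6% of all genes rose (median of the list 0.51), and NASP was not called (0.12, adjusted p = 0.0531, edgeR). The smallest adjusted p-values were those of the chaperone ASF1B (1.04 ± 0.05, adjusted p = 1.45e-09, edgeR) and the CAF-1 subunit CHAF1B (0.86 ± 0.05, 6.68e-09). In U937 4 rose and 3 fell (median 0.12; 34.6% and 34.7% of all genes), with MMS22L at 0.59 ± 0.05 (adjusted p = 3.01e-07) and RBBP4 at 0.30 ± 0.04 (3.49e-06, edgeR) among those that rose.

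**Figure D5:**
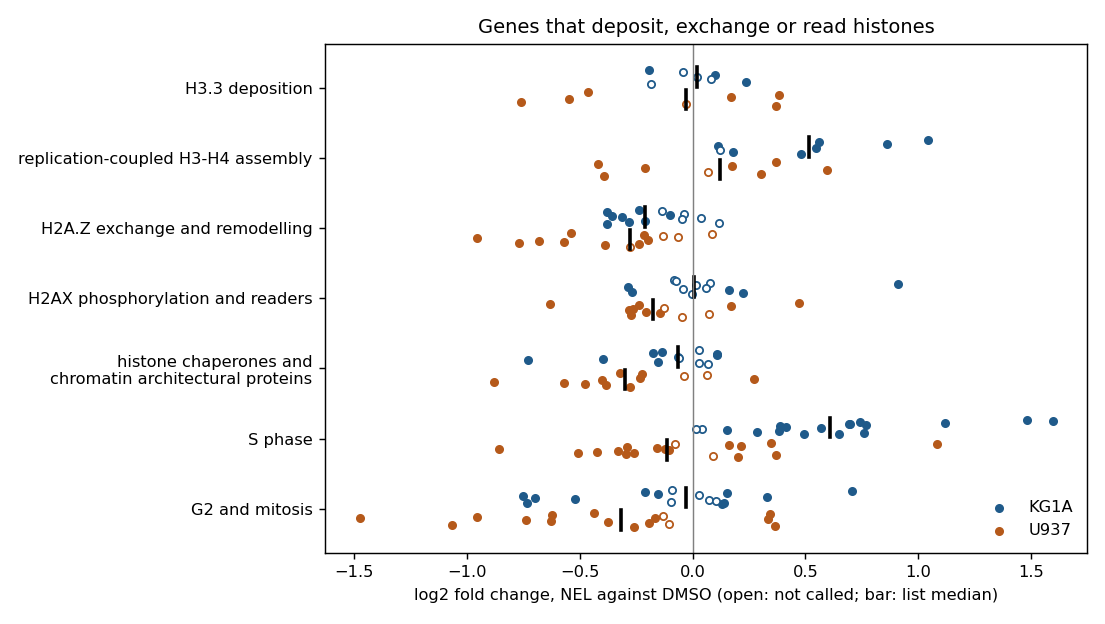
Log2 fold change of NEL against DMSO for each tested gene of the partner and cell cycle lists, with 1 point per gene, filled where called and open where not, and a black bar at the list median. The called H2A.Z exchange genes all lie left of 0 in both lines (8 and 9), and the S phase median is 0.61 in KG1A and -0.11 in U937.

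Among 12 genes that phosphorylate H2A.X, remove this mark or read it, 3 rose and 2 fell in KG1A (median 0.01). Those counts lie near the 23.6% of all genes in each direction. In U937 2 rose and 7 fell (median -0.18), where 34.6% and 34.7% of all genes did. BRCA1, a repair gene recruited through the mark, rose by 0.91 ± 0.05 (adjusted p = 2.18e-09, edgeR) in KG1A and by 0.17 ± 0.05 (0.00416) in U937. The 2 that fell in KG1A were MDC1, which binds phosphorylated H2A.X (-0.29 ± 0.04, 4.95e-05), and the ubiquitin ligase RNF168 (-0.27 ± 0.04, 0.000163, edgeR). In U937 the kinase ATM rose by 0.47 ± 0.04 (8.96e-08) and the kinase ATR fell by 0.63 ± 0.05 (1.24e-07, edgeR).

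Of 12 general histone chaperones and architectural proteins, 2 rose and 5 fell in KG1A (median -0.06), and 1 rose and 9 fell in U937 (median -0.30). PTMA, an acidic protein that binds H1, fell by 0.73 ± 0.04 (adjusted p = 4.17e-09, edgeR) in KG1A and by 0.57 ± 0.05 (7.96e-08) in U937. NPM1, nucleophosmin, fell by 0.40 ± 0.05 (1.54e-05) in KG1A and by 0.88 ± 0.06 (8.96e-09, edgeR) in U937. The 2 that rose in KG1A were the nucleosome-binding HMGN2 and HMGN1, each by 0.11 ± 0.04 (adjusted p = 0.0262 and 0.035, edgeR), and the 1 that rose in U937 was the H2A-H2B chaperone NAP1L1 (0.27 ± 0.06, 0.000733).

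Of 4 further replication-independent variants, 3 could be tested in KG1A and 2 in U937. H3-5, an H3.3-like copy gene, fell by 0.46 ± 0.11 (adjusted p = 0.00366, edgeR) in KG1A, from 9.29 to 6.78 CPM, and by 0.74 ± 0.13 (0.000169) in U937, from 9.95 to 5.93 CPM. H2AJ fell in KG1A by 0.48 ± 0.09 (0.000544, edgeR), from 13.1 to 9.37 CPM, and CENPA, the H3 variant of centromeres, fell in U937 by 0.16 ± 0.06 (0.0339, edgeR).

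Cell cycle genes moved with treatment in the same libraries. Of 18 S phase genes, 16 rose and 0 fell in KG1A (median 0.61), where 23.6% of all genes were called each way. In U937 6 rose and 10 fell (median -0.11), against 34.6% and 34.7% of all genes, and the interaction was called lower for all 18, against 26.3% of all genes. CCNE2, an S phase cyclin, rose by 1.60 ± 0.05 (adjusted p = 2.43e-11, edgeR) in KG1A and by 1.08 ± 0.04 (1.22e-10) in U937. Of 16 G2 and mitosis genes, 5 rose and 6 fell in KG1A (median -0.03) and 3 rose and 11 fell in U937 (median -0.32), with the mitotic kinase PLK1 down by 0.73 ± 0.05 (3.35e-08) and 1.07 ± 0.04 (6.34e-11, edgeR). Their part in the histone values was not tested.

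Across all 16 libraries, the genes whose log2 CPM ran most like a member's, of 11617 compared by Pearson's r, were as follows. They were RPL18 (0.980) and RPS15 (0.977), both ribosomal protein genes, for H1-10. For H2AX they were RHOF (0.998) and MTDH (0.997), for H2AZ1 JMJD8 (0.969) and GMEB1 (0.969), and for H2AZ2 PDS5A (0.981) and HOXA10 (0.966). MACROH2A1 ran with RPS20 (0.996) and SLC38A2 (0.996), H3-3A with RNF167 (0.970) and ATF6B (0.968), and H3-3B with IMPDH2 (0.980) and CHERP (0.977). RPL18 had 804 CPM in KG1A with DMSO and 601 with NEL, a smaller change than that of H1-10, so a high r marks a like order of groups and not a like size. Among the members, r was highest for H2AX with MACROH2A1 (0.89) and H1-10 with H2AZ1 (0.88) and lowest for MACROH2A1 with H3-3A (-0.85). The 16 points form 4 groups that share line and treatment, so these values describe group patterns and carry no test.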

How the data were processed

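Polyadenylated RNA was measured in 16 libraries. The authors deposited raw read counts and RPKM of the same genes. The submitters' processing notes name bcl2fastq 2.18.0.12, TopHat2, HTSeq 0.11.2 and the builds hg19 and GRCh37, without roles. Annotation and strand setting: not given in the sources used here. Each deposited RPKM value equals the count divided by exon length and library total (relative deviation at most 1.86e-07), so it is no independent evidence. Every column matched a sample. Symbols were found for 32562 of 34618 genes.

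All genes' counts went into edgeR 4.0.16 (TMM, quasi-likelihood test, minimum count 10 and minimum total 15) in R 4.3.3, with Benjamini-Hochberg adjustment and calls at an adjusted p under 0.05. The method was tested on simulated data. Those data held no odd and even sets, and their changes were larger than every NEL change of a member but that of H1-10. That test therefore does not cover the sets or the smaller changes. Errors are SE of the log2 fold change, CPM use the TMM factors of the 16 libraries, and differences between lines come from an interaction term. Alternatives used DESeq2 1.42.0, limma 3.58.1, other scalings, filters, thresholds, subsets of libraries and one model. Figures were drawn with matplotlib 3.10.9 in Python 3.11.15. The members and lists were chosen with earlier results of these data known. Named partners are, per list and line, the 2 called genes of smallest adjusted p and any gene that makes up a count of 2 or fewer, and for each member the 2 genes of highest Pearson correlation with a mean of at least 5 CPM (a pseudocount of 0.5 was added). H3.3 and H2A.Z pseudogene loci were not analysed here. Same-numbered libraries deviated together (correlation 0.277 to 0.369 in all 16 pairs of groups and numbers), which the odd and even sets alone could give: in 9 of 16 cases a library matched another number best, and in 16 of 16 the best match was in the same set. The numbers come from the titles, which do not explain them, so the replicate block is an alternative and the main fits have no block. Motifs were searched in RefSeq promoters of GRCh38.p14, and shared windows in GENCODE 29 transcripts. Some marker genes are not reported here.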

Additional observations from a re-analysis of the deposited data

Results flagged for a closer look

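These 5 results differ between the lines by a test of the difference itself, the interaction term of edgeR over 16 libraries, given as the U937 NEL effect minus the KG1A NEL effect on the log2 scale. The difference was 0.42 for MACROH2A1 (adjusted p = 1.56e-07), where every NEL library lay below the DMSO libraries in KG1A and above them in U937. It was -0.39 for H3-3B (adjusted p = 7.09e-06), -0.24 for H2AZ2 (0.013), -0.21 for H2AX (0.00221) and -0.15 for H2AZ1 (0.0177), each of which was lower with NEL in both lines and more so in U937. The last 3 calls were lost with DESeq2 size factors, at -0.15 for H2AZ2 (adjusted p = 0.109), -0.13 for H2AX (0.0577) and -0.07 for H2AZ1 (0.317). No single library stood far from the other 3 of its group for any member, in 28 groups of 4 checked by Dixon's criterion.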

How the results depend on the processing

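H1-10, H2AX, H2AZ1 and MACROH2A1 in KG1A and all 5 calls in U937 kept their direction and call under every alternative run. All alternatives use the same libraries, which resemble each other within the odd and even sets. They therefore cannot show variation between separate cultures. The interaction gave 5 member calls, but 2 with DESeq2 size factors or the DESeq2 test and 3 with upper quartile factors, limma-trend with either pseudocount or an adjusted p under 0.01. DESeq2 size factors move the median of all genes by 0.08 there. Leaving out 1 library at a time gave 4 to 6 calls for NEL in KG1A, 5 to 6 in U937, and 5 in the interaction and both line comparisons. The replicate block gave 7 calls in KG1A (H3-3A added), 6 in U937 (MACROH2A1 added), 5 in the interaction, 5 between lines with DMSO and 6 with NEL (H2AZ1 added, adjusted p = 0.0269), and changed no other call of a member.

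Signs turned only where no call was made. H3-3A in U937 was 0.0261 with upper quartile factors, 0.0454 and 0.0466 with limma-trend (pseudocounts 0.5 and 0.1), 0.0920 in odd libraries, and -0.134 to 0.0502 with 1 library left out (above 0 without U937 DMSO library 1, NEL library 2 or NEL library 4). H3-3B between lines with DMSO was 0.0316 with upper quartile factors, 0.0428 and 0.0432 with limma-trend, 0.0278 in even libraries and 0.0689 in one model. With 1 library left out, the H1-10 interaction ran from -0.0142 (without KG1A DMSO library 3) to 0.0844, H2AZ1 between lines with DMSO from -0.00161 (without KG1A DMSO library 4) to 0.0340, and H2AZ2 between lines with NEL from -0.00341 (without KG1A NEL library 1) to 0.0852. From counts without exon length, the H2AZ1 share was 60.1, 58.9, 56.7 and 56.9% and the H3-3A share 7.45, 6.86, 11.4 and 14.8% in KG1A with DMSO and NEL and U937 with DMSO and NEL. These shares differ from those of RPKM only by the division by exon length. The lengths are 2303 and 4749 bases for H2AZ1 and H2AZ2, and 3146 and 6134 for H3-3A and H3-3B. The cause of the sign turns was not tested. With 173 to 462 reads per library, H3-3A has the widest errors of the 7 genes.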
